A study of Mus musculus with 22 samples.

Results

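The effect of Arid1a loss that common myeloid progenitors (CMP), granulocyte-monocyte progenitors (GMP) and megakaryocyte-erythroid progenitors (MEP) had in common was measured in 18 of the 22 RNA-seq libraries of the series, 3 WT and 3 KO mice for each population. Every mouse gave all 3 populations, so the mouse was the unit. A gene was counted as shared when its level in every KO mouse lay below, or above, that in every WT mouse in CMP, in GMP and in MEP. Of 14816 genes tested in all 3 populations, 567 (3.83%) were lower in this sense and 498 (3.36%) were higher, and 489 (3.3%) were beyond the WT range in every population but with signs that differed. These values chose the genes, so no test of the choice was made.

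KO mice were Arid1a f/f;Mx1-Cre+ and WT mice were Arid1a f/f;Mx1-Cre- littermates, on a C57BL/6 background. Both groups received 5 doses of 300 µg poly(I:C) at 8 to 14 weeks of age, and bone marrow (BM) cells were sorted 4 weeks later. CMP were sorted as Lin-Kit+Sca1-CD34+ cells with low Fcγ receptor, GMP as the CD34+ cells with high Fcγ receptor, and MEP as the cells negative for both. Mx1-Cre is driven by an interferon-responsive promoter that is active in blood cells and also in other tissues, and poly(I:C) is an inducer of interferon. WT mice carried no Cre, so effects of the Cre transgene and of Arid1a loss cannot be told apart. The remaining 4 libraries, from long-term haematopoietic stem cells (LT-HSC; 2 WT, 2 KO) of other mice and made with another kit, were used as libraries that did not take part in choosing the genes.

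ARID1A is the largest subunit of the canonical BAF form of the SWI/SNF complex, which uses ATP to move and evict nucleosomes and thereby opens enhancers and promoters to transcription factors. In the BM, CMP give rise to GMP, which make neutrophils and monocytes, and to MEP, which make red cells and platelets. Basophil and mast cell precursors are also found among the sorted CMP and GMP.

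Levels are given as CPM, the counts of a gene scaled to a common library size by TMM, in the order of mice 300, 305 and 309 for WT and 301, 304 and 308 for KO. Effects are KO minus WT differences of log2 CPM, and average effects over the 3 populations carry their standard error (SE) from limma with 3 mice against 3. Library totals of the 18 progenitor libraries ranged from 41497753 to 60789922 counts on genes. Xist, the RNA of the inactive X chromosome, was at 155 to 203 TPM (transcripts scaled for length and depth) in mouse WT 305 and at 0.239 TPM or less in the other 5 mice. The Y-linked genes Ddx3y, Eif2s3y, Kdm5d and Uty were at 0.574 TPM or less in mice WT 305 and KO 304, and at 9.59 to 65.2 TPM in the other 4. By limma (FDR under 0.1), 2332 genes (15.7%) were lower and 2485 (16.8%) higher in the average over the 3 populations (32.5% in either direction), and with those 4 mice alone, a choice made after seeing the data, the counts were 2622 and 2233. The sort genes followed the gates: Cd34 was at 423 to 455 TPM in WT CMP, 272 to 291 TPM in WT GMP and 0.742 to 10.9 TPM in WT MEP, and the Fcγ receptor gene Fcgr3 was at 8.62 to 13.8, 259 to 284 and 0.458 to 1.01 TPM. Some sort genes left the WT range in KO mice. Fcgr3 was lower, at 4.93 to 5.70 TPM in KO CMP and 0.0985 to 0.208 TPM in KO MEP. In KO GMP, Cd34 was at 140 to 221 TPM and Kit at 102 to 111 TPM (WT 119.6 to 126). The other Fcγ receptor gene of the list, Fcgr2b, was higher in KO, at 151 to 164 against 119 to 129.8 TPM in GMP and at 34.5 to 35.5 against 28.3 to 32.7 TPM in CMP. Ly6a (Sca1) was at 0.252 to 0.584 against 1.28 to 1.71 TPM in GMP, and Il7r at 4.48 to 12.3 against 0.552 to 1.03 TPM in CMP. The part of shifted gates in the results was not tested. In bulk RNA, fewer cells of a type and less RNA per cell cannot be told apart.

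Arid1a RNA, the targeted transcript, was lower in KO mice by a small amount. In CMP, Arid1a (ENSMUSG00000007880, chr4:133679008-133756769 of GRCm38, minus strand) was at 417, 387 and 403 CPM in WT and 363, 337 and 337 CPM in KO mice. In GMP the levels were 314, 423 and 342 CPM in WT and 253, 294 and 278 CPM in KO mice. In MEP they were 322, 303 and 314 CPM in WT and 299, 271 and 282 CPM in KO mice. The groups did not overlap in any population, and the average effect was -0.25 ± 0.03 (limma FDR 0.00145). Gene totals include reads from the exons that the deletion leaves in place, so they check the recombination only in part. In LT-HSC, Arid1a was at 115 and 111 CPM in WT and 51.7 and 54.1 CPM in KO libraries. Arid1b, the paralogous subunit that takes the same place in the complex, had an average effect of 0.04 ± 0.06 (limma FDR 0.676), and its WT and KO levels overlapped in all 3 populations.

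Falls were larger than rises among the shared genes. The median average effect of the 567 lower genes was -0.73 on the log2 scale, 211 of them fell by at least 1 and 58 by at least 2. The median of the 498 higher genes was 0.41, with 88 at 1 or more and 20 at 2 or more. The median over all tested genes was 0.01. Mean levels over WT and KO libraries had a median of 9.31 TPM for lower genes, 15.1 TPM for all tested genes and 27.4 TPM for higher genes. KO levels enter these means, so the choice of the genes itself shifts them. Sizes and levels of shared genes come from the values that chose them and are given as a description. Among the lower genes, 58.0% had their highest WT level in CMP and 17.5% in MEP, against 43.9% and 33.1% of all tested genes. Of the higher genes, 33.7% were highest in WT CMP and 50.2% in WT MEP.

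The genes at the edge of the rule had next to no gap between the groups. Pkn3, a protein kinase, was counted as lower with 18.9942 CPM in the lowest WT and 18.9913 CPM in the highest KO GMP library. Trub1, a pseudouridine synthase, was left out because its lowest WT and highest KO MEP levels were 55.2361 and 55.2375 CPM. Requiring an average effect of at least 0.5 as well left 356 lower and 211 higher genes. Of the genes tested in each single population by edgeR, 12.8% were lower and 10.6% higher in CMP (FDR under 0.1), whereas GMP had 16.3% and 17.5% and MEP had 15.4% and 14%. Without overlap of the groups, 17.2% were lower and 15.6% higher in CMP, whereas GMP had 19.1% and 23% and MEP had 19.3% and 19.2%. The edgeR shares, and those of the average fit (15.7% lower, 16.8% higher), are the background for the gene list counts below. By edgeR in all 3 populations at once, 464 genes (3.13%) were lower and 323 (2.18%) higher, of which 425 and 301 also met the rule. The 464 became 284 without mouse KO 301 and 302 without mouse WT 300, and the 323 became 191 without mouse KO 301 and 177 without mouse WT 309. With the mice paired in the order of the study's columns as a block, which the labels do not give as pairs, the 323 became 515. Without mouse WT 305 the rule itself, then with 2 WT mice to compare, was met by 1102 lower and 796 higher genes.

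The sequences upstream of the 3 largest falls and 3 largest rises that had a usable RefSeq promoter entry are shown because ARID1A-containing complexes act on such regions and these genes moved in the same direction in 3 populations. They were taken from RefSeq on GRCm38.p6 and run 5′ to 3′ on the gene's strand, over the exon-free part of the 250 bases before the RefSeq start. Capitals mark a match to one of the motifs searched on both strands. A GATA match was AGATAA, its variant AGATAG, the related letters TGATAA or the last form TGATAG. An AP-1 match was TGANTCA and a RUNX match was TGTGGT. An ETS match was CCGGAA or the other form AGGAAG. A CEBP match was TTGCAA and a KLF match was CCACCC. Emid1 and 2900026A02Rik, both lower, held 2 ETS matches and 1 KLF match, Them7 held 1 GATA match, Ifitm1 and Ffar2, both higher, held 1 KLF and 1 AP-1 match, and Dmxl2 held none. The window of Emid1 is chr11:5152258-5152480 (minus strand), that of Them7 chr2:105224092-105224319 (plus strand), that of 2900026A02Rik chr5:113221277-113221526 (minus strand), that of Ifitm1 chr7:140967826-140968027 (plus strand), that of Ffar2 chr7:30823776-30824025 (minus strand) and that of Dmxl2 chr9:54501627-54501876 (minus strand). The RefSeq start of Ifitm1 lies 855 bases from the start of the GENCODE gene.
Emid1: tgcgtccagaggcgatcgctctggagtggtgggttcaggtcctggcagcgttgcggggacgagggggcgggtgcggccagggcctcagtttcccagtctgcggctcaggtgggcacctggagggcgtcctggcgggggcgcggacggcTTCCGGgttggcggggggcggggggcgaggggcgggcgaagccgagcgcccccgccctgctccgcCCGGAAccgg
Them7: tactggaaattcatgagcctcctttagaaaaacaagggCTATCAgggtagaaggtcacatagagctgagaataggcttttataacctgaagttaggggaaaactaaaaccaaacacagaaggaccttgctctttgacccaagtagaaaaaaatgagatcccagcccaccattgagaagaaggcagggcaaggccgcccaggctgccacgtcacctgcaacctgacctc
2900026A02Rik: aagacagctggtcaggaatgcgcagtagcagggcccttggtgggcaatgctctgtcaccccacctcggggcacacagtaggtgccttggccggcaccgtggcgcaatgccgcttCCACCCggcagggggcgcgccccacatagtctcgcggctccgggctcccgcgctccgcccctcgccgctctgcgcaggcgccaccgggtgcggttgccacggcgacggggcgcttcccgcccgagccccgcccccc
Ifitm1: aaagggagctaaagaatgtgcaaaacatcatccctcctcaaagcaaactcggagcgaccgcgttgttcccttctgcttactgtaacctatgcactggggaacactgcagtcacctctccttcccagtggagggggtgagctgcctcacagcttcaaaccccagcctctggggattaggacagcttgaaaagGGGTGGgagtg
Ffar2: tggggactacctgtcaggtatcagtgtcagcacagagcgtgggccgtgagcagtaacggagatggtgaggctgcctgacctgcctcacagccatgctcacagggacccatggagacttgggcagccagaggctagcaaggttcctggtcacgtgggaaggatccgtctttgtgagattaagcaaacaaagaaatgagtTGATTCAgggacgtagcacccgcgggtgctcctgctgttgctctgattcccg
Dmxl2: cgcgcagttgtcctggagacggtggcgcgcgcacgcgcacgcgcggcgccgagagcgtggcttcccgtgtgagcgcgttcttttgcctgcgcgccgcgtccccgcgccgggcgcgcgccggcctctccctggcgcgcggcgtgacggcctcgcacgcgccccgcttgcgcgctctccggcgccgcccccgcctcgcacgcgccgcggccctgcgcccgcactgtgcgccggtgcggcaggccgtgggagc

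Over all shared genes with an entry, no motif was much more frequent than among all tested genes. GATA matches were in 17.7% of the 430 windows of lower genes, 17.6% of the 393 of higher genes and 17.1% of the 10199 of all tested genes. The corresponding shares were 4.88%, 5.09% and 4.05% for AP-1, 8.84%, 10.2% and 10.9% for RUNX, 3.72%, 3.82% and 4.03% for CEBP and 32.3%, 32.8% and 32.7% for KLF. ETS matches were in 39.8% of lower, 42.7% of higher and 45.3% of all windows. These shares are descriptions of letters within the window only.

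Emid1, which encodes an extracellular matrix protein with an EMI domain, had the largest average fall of all shared genes. In CMP, Emid1 (ENSMUSG00000034164, chr11:5106265-5152257) was at 33.9, 24.5 and 24.9 CPM in WT and 2.40, 1.43 and 1.78 CPM in KO mice. The GMP levels were 28.5, 22.5 and 23.6 CPM in WT and 0.501, 0.499 and 0.375 CPM in KO mice. The MEP levels were 5.49, 2.64 and 5.02 CPM in WT and 0.0206, 0.141 and 0.28 CPM in KO mice. Every KO level was far below the lowest WT level of its population, and the average effect was -4.78 ± 0.20. Them7, a thioesterase family gene, had the next largest fall among genes averaging at least 1 TPM over WT and KO libraries of each population. Its levels were 2.34 to 2.93 CPM in WT and 0.566 to 1.10 CPM in KO mice in CMP. They were 3.14 to 4.08 against 0.187 to 0.521 CPM in GMP and 1.80 to 3.22 against 0.0402 to 0.112 CPM in MEP.

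Secreted signals and matrix enzymes were among the strongest falls. Osm encodes oncostatin M, a cytokine of the IL-6 family, and in CMP it was at 8.59, 8.25 and 7.72 CPM in WT and 1.62, 1.72 and 1.64 CPM in KO mice. In GMP Osm was at 6.12, 5.29 and 6.07 CPM in WT and 3.47, 4.202 and 3.08 CPM in KO mice. In MEP Osm was at 7.84, 9.46 and 6.86 CPM in WT and 0.165, 0.422 and 0.056 CPM in KO mice. It was thus lower everywhere but unevenly, with effects of -2.27 (CMP), -0.70 (GMP) and -5.28 (MEP). Csf1, the macrophage colony-stimulating factor, was at 8.28, 6.86 and 6.82 CPM in WT and 0.917, 1.55 and 1.06 CPM in KO mice in CMP. In GMP, where WT levels were highest, Csf1 was at 29.6, 26.3 and 30.5 CPM in WT and 1.98, 3.47 and 2.70 CPM in KO mice. In MEP it was at 0.583, 0.567 and 0.941 CPM in WT and 0.288, 0.382 and 0.28 CPM in KO mice. The average effect of Csf1 was -2.36 ± 0.18, and MEP levels were under 1 CPM in both groups. Bmp1, the secreted proteinase that trims procollagen, was at 6.46 to 7.42 CPM in WT and 0.582 to 0.721 CPM in KO mice in GMP and 14.5 to 17.8 against 0.984 to 3.02 CPM in MEP, and its effect in CMP was -1.87. Of the 7 cytokine and chemokine genes tested, 5 were lower and 1 was higher in the average fit (limma FDR under 0.1), against 15.7% and 16.8% of all tested genes. Besides Osm and Csf1 these were Il4, Angpt1 and Vegfa, with average effects of -0.71 ± 0.17, -0.51 ± 0.13 and -0.90 ± 0.12. Csf1 and Il4 are also on the list of basophil, mast cell and eosinophil genes below, so the falls of these lists are not separate results. The member that rose was Tgfb1 (0.25 ± 0.04), which was higher in every KO mouse in all 3 populations.

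Some receptors for guidance cues were among the strongest falls. Plexins and neuropilins are the cell surface receptors of semaphorins, which steer migration and adhesion. Plxnb2 (ENSMUSG00000036606, chromosome 15) was at 71.6, 82.3 and 99.4 CPM in WT and 6.75, 7.08 and 9.90 CPM in KO mice in CMP. In GMP Plxnb2 was at 22.01, 33.2 and 32.9 CPM in WT and 1.78, 1.14 and 3.34 CPM in KO mice. The MEP levels were 7.16, 2.78 and 4.93 CPM in WT and 0.556, 0.482 and 0.541 CPM in KO mice. The effects were -3.42 (CMP), -3.90 (GMP) and -3.05 (MEP), and a difference between populations was not detected (edgeR interaction FDR 0.565). Plxnd1 (-1.91 ± 0.10), Nrp2 (-2.02 ± 0.21) and Plxna3 (-1.14 ± 0.10) were shared lower as well, and Plxna2 was shared higher (1.40 ± 0.14). Of 13 plexin, neuropilin and semaphorin genes tested, 5 were lower and 6 higher in the average fit. Nrp2 and Plxna2 were at low levels, with 0.244 to 0.421 against 0.121 to 0.185 CPM for Nrp2 and 1.26 to 1.55 against 2.47 to 2.99 CPM for Plxna2 in WT and KO MEP.

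Rapgef3 (EPAC1), the cAMP-gated exchange factor for Rap, was at 12.9 to 15.8 CPM in WT and 3.06 to 3.57 CPM in KO mice in CMP, 25.6 to 28.7 against 8.59 to 11.7 CPM in GMP and 4.14 to 6.35 against 0.185 to 0.504 CPM in MEP. Arhgef40, a guanine nucleotide exchange factor, had effects of -2.09 (CMP), -2.53 (GMP) and -2.50 (MEP). Rgs10, which speeds the switching off of G protein subunits, fell by similar amounts (-1.94 (CMP), -2.99 (GMP) and -2.21 (MEP)). The annotation of Rgs10 overlaps that of Gm15503 on the same strand, which was shared lower too, so reads of these 2 genes may have been split. The tetraspanin Cd63 was at 317 to 400.2 CPM in WT and 158 to 192 CPM in KO mice in GMP, and its effect was larger in CMP (-2.32) and MEP (-3.49) than in GMP (-1.01). Itga5, the alpha chain of the fibronectin receptor, had an average effect of -0.69 ± 0.04, and Cd47, the signal that restrains phagocytes, one of -0.30 ± 0.04. Of 27 integrin and adhesion genes tested, 7 were lower and 7 higher (25.9% each), against 15.7% and 16.8% of all tested genes.

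The remaining large falls were in enzymes and in genes without a known function. St8sia6, a sialyltransferase, had an average effect of -2.75 ± 0.27, Acy3, an aminoacylase, one of -2.48 ± 0.16, and 2900026A02Rik one of -2.56 ± 0.15. The annotation of 2900026A02Rik overlaps F830115B05Rik and Gm43094 on the same strand, and 300 lower and 278 higher shared genes overlap another annotated gene on either strand.

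**Figure D1:**
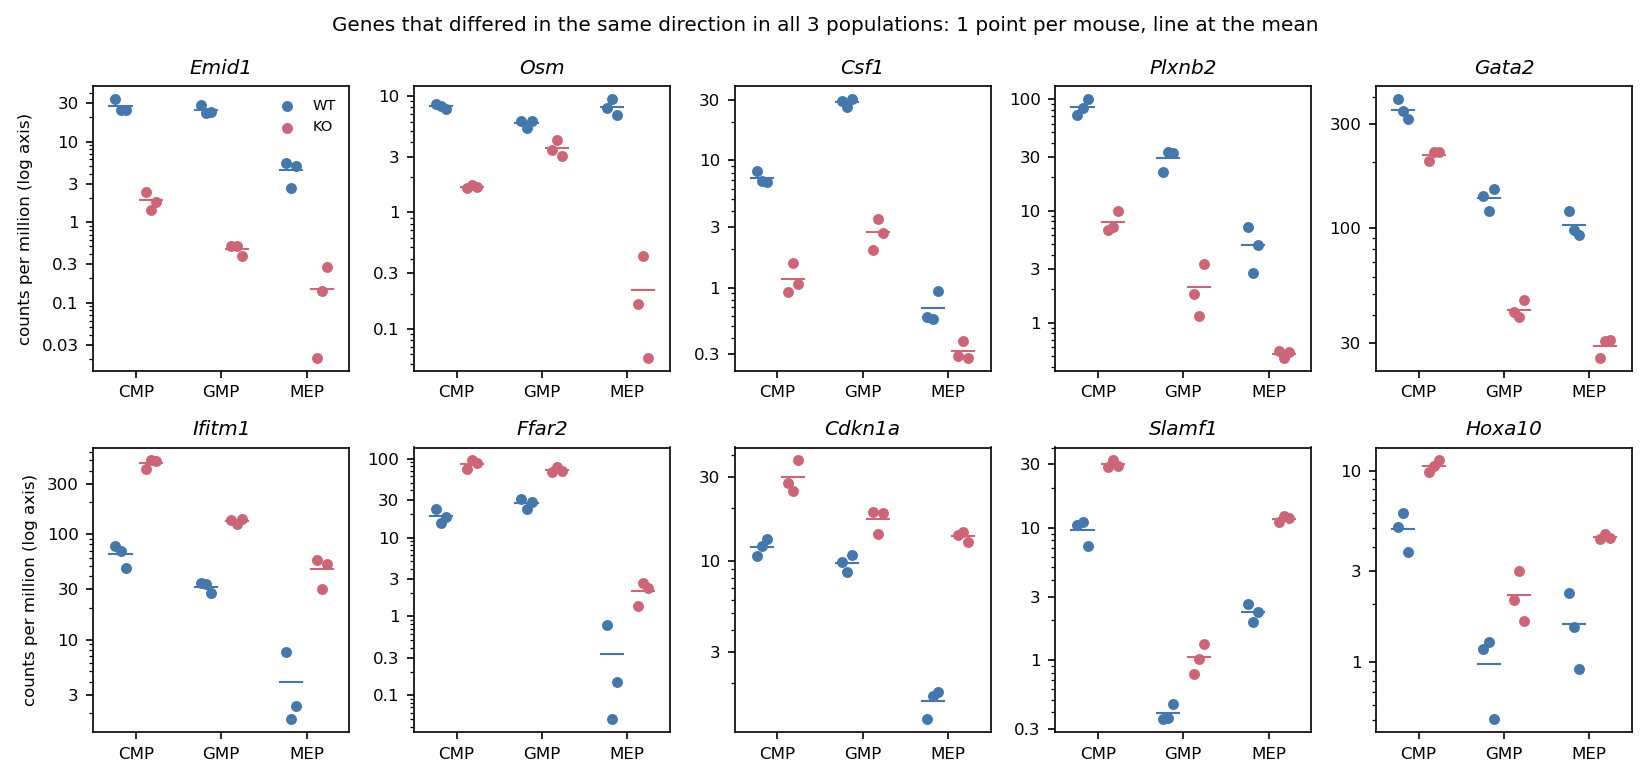
Levels of 10 shared genes in CMP, GMP and MEP in CPM on a log axis, with 1 point for each mouse (blue WT, red KO, 3 mice each) and a line at the mean of each group. The top row holds genes that were lower in KO and the bottom row genes that were higher, and in each panel no KO point reaches the WT points of the same population.

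Ifitm1, an interferon-induced transmembrane protein, had the largest average rise among genes averaging at least 1 TPM over WT and KO libraries of each population. In CMP, Ifitm1 (ENSMUSG00000025491, chromosome 7) was at 77.8, 69.7 and 47.6 CPM in WT and 418, 500.2 and 496 CPM in KO mice. In GMP it was at 34.3, 33.5 and 27.7 CPM in WT and 137, 126 and 138 CPM in KO mice. In MEP it was at 7.71, 1.75 and 2.33 CPM in WT and 56.5, 30.5 and 52.02 CPM in KO mice. All KO levels were several times above the WT levels, and the average effect was 2.92 ± 0.22. Ifitm1 belongs to a family of similar neighbouring genes among which reads could be shared.

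Ffar2, a receptor for short-chain fatty acids, came next. In CMP, Ffar2 was at 22.98, 15.5 and 18.3 CPM in WT and 75.3, 95.3 and 89.5 CPM in KO mice. The GMP levels were 30.9, 23.4 and 27.9 CPM in WT and 67.3, 78.6 and 70.2 CPM in KO mice. The MEP levels were 0.79, 0.0493 and 0.149 CPM in WT and 1.36, 2.63 and 2.31 CPM in KO mice. WT levels in MEP were the lowest of the 3 populations, and mouse WT 300 was the highest WT there. Ffar2 averaged 0.378 TPM in WT and 2.07 TPM in KO MEP, so it passed the 1 TPM limit there through the KO mice. The average effect was 2.24 ± 0.32. D7Ertd128e, an uncharacterised gene also on chromosome 7, rose by 2.11 ± 0.16 and was at 0.159 to 0.319 CPM in WT and 1.07 to 1.25 CPM in KO mice in CMP.

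Cdkn1a encodes p21, the CDK inhibitor that halts the cycle downstream of p53. In CMP, Cdkn1a was at 10.6, 12.2 and 13.2 CPM in WT and 27.8, 25.02 and 37.4 CPM in KO mice. In GMP it was at 9.88, 8.62 and 10.7 CPM in WT and 19.1, 14.2 and 18.8 CPM in KO mice. In MEP it was at 1.24, 1.70 and 1.78 CPM in WT and 14.1, 14.5 and 12.8 CPM in KO mice. The rise was largest in MEP, with effects of 1.31 (CMP), 0.82 (GMP) and 3.12 (MEP) (edgeR interaction FDR 1.2e-05). A gene on the opposite strand, AC167363.2, overlaps Cdkn1a. Among 19 p53 target genes tested, 9 were higher and 2 lower in the average fit, against 16.8% and 15.7% of all tested genes. Zmat3 (0.91 ± 0.08) was shared higher while Perp (-1.07 ± 0.15) was shared lower. The rise of this list was mainly seen in MEP, with 11 higher and 3 lower by edgeR and a median of 0.32. GMP had 5 higher and 4 lower (median 0.08), whereas CMP had 5 and 3 (median 0.096). List medians per mouse overlapped between WT and KO for GMP as well as CMP, but not for MEP. Ccne1, the cyclin of S phase entry, rose by 0.83 ± 0.11 and the factor E2f2 by 1.08 ± 0.10. Of 30 mitosis genes, 21 (70%) were higher and 0 lower by limma, by small amounts with a median of 0.16, and at an unadjusted p under 0.05 22 were higher and 0 lower. By edgeR on counts summed per mouse, the numbers were 21 and 0. Mki67 rose by 0.36 ± 0.09, Ccnb1 by 0.29 ± 0.06 and Top2a by 0.19 ± 0.05. Only Ccna2 of this list was shared by the rule, and in CMP 0 of the 30 were called in either direction by edgeR, also at an unadjusted p under 0.05, and by DESeq2. In GMP 20 and in MEP 19 were higher by edgeR. Ccnd1 (cyclin D1) was lower in every KO mouse, with 13.5 to 22.2 CPM in WT and 1.85 to 9.63 CPM in KO mice in GMP, but its KO levels spread widely and its average effect of -1.38 ± 0.39 had an FDR of 0.0365 by limma, which became 0.13 without mouse WT 309. Of 37 DNA replication genes, 7 (18.9%) were higher and 1 (2.70%) lower in the average fit, against 16.8% and 15.7% of all tested genes.

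Other rises had no common role. Olfm1, a secreted olfactomedin, had effects of 1.10 (CMP), 2.98 (GMP) and 0.97 (MEP), and Thbd, the thrombin receptor thrombomodulin, had effects of 0.66 (CMP), 1.38 (GMP) and 2.95 (MEP). Lst1, a leukocyte gene of the MHC region, was at 6.52 to 7.08 CPM in WT and 25.8 to 32.9 CPM in KO mice in GMP. Dmxl2, which assembles the proton pump of endosomes, was at 17.99 to 29.9 CPM in WT and 89.8 to 129 CPM in KO mice in GMP and had an average effect of 1.89 ± 0.09. Arid3b, a DNA-binding protein of the ARID family outside the SWI/SNF complex, rose by 1.57 ± 0.09. Slamf1, the CD150 antigen used to sort stem cells, was at 10.4, 11.02 and 7.25 CPM in WT and 28.9, 32.1 and 29.4 CPM in KO mice in CMP and at 2.63, 1.92 and 2.30 CPM in WT and 10.99, 12.2 and 11.8 CPM in KO mice in MEP. The GMP levels were 0.354 to 0.463 CPM in WT and 0.782 to 1.32 CPM in KO mice. Csf2rb2, a beta chain of the IL-3 receptor that is a close copy of Csf2rb, rose by 1.51 ± 0.14, whereas the alpha chain Il3ra had an average effect of -0.64 ± 0.07.

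Some genes moved by nearly the same amount everywhere. Gmpr, the guanosine monophosphate reductase, had effects of -1.17 (CMP), -1.16 (GMP) and -1.05 (MEP) and Ahdc1, an AT-hook protein, of -1.39 (CMP), -1.64 (GMP) and -1.36 (MEP). Itm2c and the fatty acid amide hydrolase Faah were also among the most even falls of at least 1. The most even rises were Galr3 (1.56 (CMP), 1.57 (GMP) and 1.45 (MEP)), a galanin receptor whose annotation overlaps that of Gcat, and Rnf43 (1.12 (CMP), 0.95 (GMP) and 1.11 (MEP)), a ubiquitin ligase that removes Wnt receptors. Hoxa10, a homeobox factor of immature myeloid cells, rose by 1.31 ± 0.25 on average and was at 3.74 to 6.03 CPM in WT and 9.81 to 11.3 CPM in KO mice in CMP. Specc1 and the palmitoyltransferase Zdhhc2 were the other 2, although the effect of Zdhhc2 differed between populations (edgeR interaction FDR under 0.1, range 0.52). These genes were picked for the smallest ranges, so their evenness is no separate result. Among all tested genes, 38.3% had a genotype effect that differed between populations (edgeR interaction, FDR under 0.1), and 301 lower and 193 higher shared genes did. The rule used the same values, so nothing is read from these counts.

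**Figure D2:**
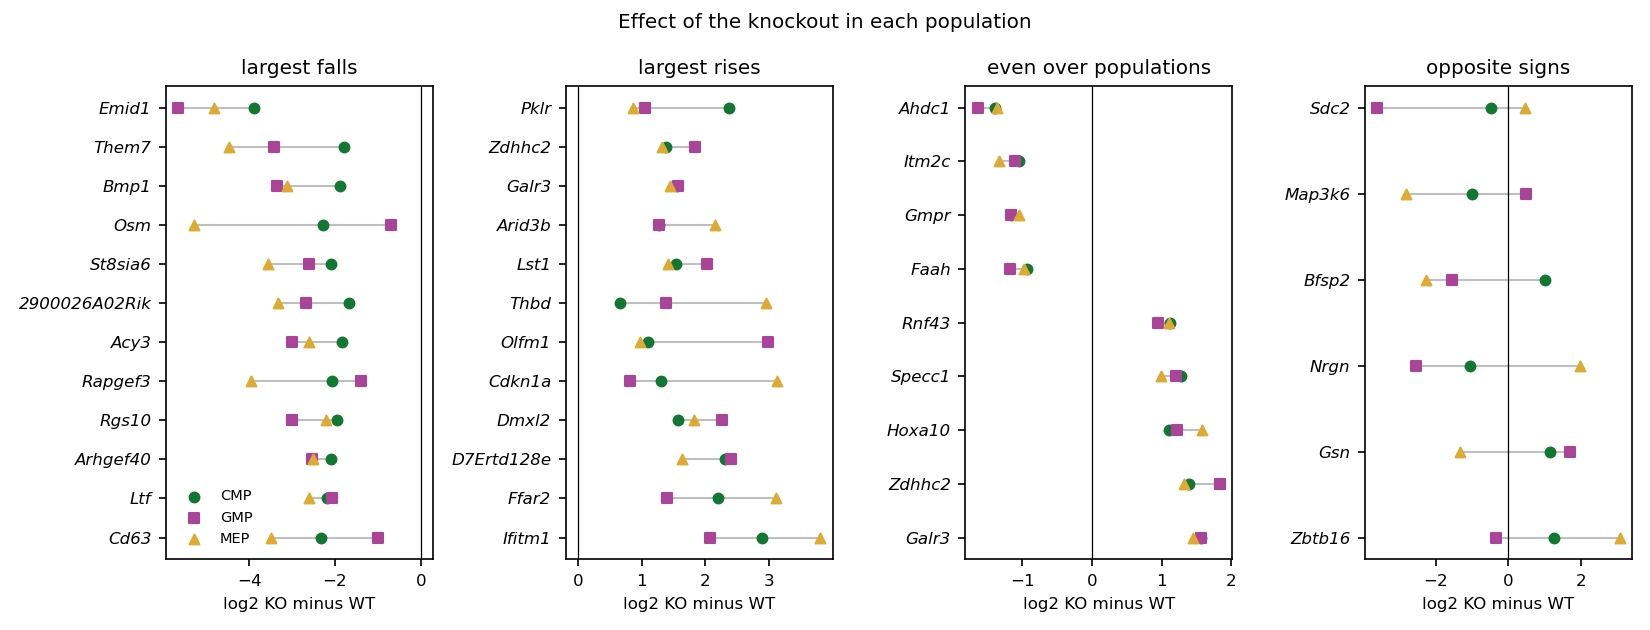
KO minus WT differences of mean log2 CPM (3 mice each) for the largest falls, the largest rises, genes with even effects and genes with opposite signs, with 1 point for each of CMP, GMP and MEP joined by a line. No error is drawn. Points of Galr3 lie nearly on top of each other (a range of 0.12), whereas those of Osm are 4.58 apart.

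Genes of basophils, mast cells and eosinophils were lower together. These cells carry granules of proteases and histamine and arise through precursors within the CMP and GMP gates. Of the 16 genes of this list that were tested, 12 (75%) were lower and 1 (6.25%) was higher in the average fit, with a median effect of -1.18. Prss34, the basophil protease mMCP-11, was at 123, 171 and 303 CPM in WT and 6.21, 5.06 and 8.98 CPM in KO mice in GMP. In CMP Prss34 was at 1.48, 1.47 and 3.95 CPM in WT and 0, 0.0609 and 0.124 CPM in KO mice. The MEP levels were 0.865, 0.838 and 1.39 CPM in WT and 0.0412, 0 and 0.429 CPM in KO mice. A KO library of CMP and one of MEP held no count, so the fitted average of -4.21 ± 0.49 depends on the prior count. Cpa3 (carboxypeptidase A3), Slc18a2 (the vesicular monoamine transporter) and Csf1 were shared lower as well, with 123 to 283 CPM in WT and 31.3 to 56.9 CPM in KO mice in GMP for Cpa3 and 41.04 to 48.3 against 12.96 to 14.7 CPM for Slc18a2. Mcpt8 (-2.17 ± 0.30), Ms4a2 (-1.18 ± 0.19) and Il5ra (-1.04 ± 0.22) passed the test without meeting the rule, and Hdc (-0.43 ± 0.19) did not pass it. The member that rose was Ms4a3 (0.57 ± 0.14), which is also a gene of granulocyte precursors. By edgeR on counts summed per mouse, 14 were lower and 1 higher. The summed level of 7 basophil and mast cell markers, all on the list although 4 of them were tested, was 781 to 1246 TPM in WT and 127 to 176 TPM in KO GMP, 107 to 274 against 76.8 to 84.001 TPM in CMP and 3.68 to 7.15 against 1.20 to 2.85 TPM in MEP, with Cma1 at 0 in MEP. The part of cell numbers in this result was not tested.

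Gata2, a transcription factor of stem cells, mast cells and basophils, was lower in all 3 populations. In CMP, Gata2 (ENSMUSG00000015053, chr6:88193891-88207032) was at 389.9, 342 and 315 CPM in WT and 204, 222 and 223 CPM in KO mice. In GMP it was at 139.9, 119.9 and 152 CPM in WT and 41.2, 39.4 and 46.8 CPM in KO mice. In MEP it was at 120.3, 97.8 and 93.02 CPM in WT and 25.5, 30.6 and 30.8 CPM in KO mice. The average effect was -1.40 ± 0.07 and was smaller in CMP (-0.68) than in GMP (-1.69) or MEP (-1.83; edgeR interaction FDR 3.2e-05). Myc was shared lower by a small amount (-0.30 ± 0.05). Of 44 haematopoietic transcription factors tested, 15 were lower and 10 higher, and Hoxa10 was the shared member that rose. Of the 20 stem and multipotent progenitor genes, 5 were lower and 5 higher (25% each), against 15.7% and 16.8% of all tested genes. Nr4a2, an immediate early nuclear receptor, had an average effect of -1.29 ± 0.14, and of 16 AP-1 and immediate early genes 3 were lower and 3 higher.

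Erythroid and heme genes were higher. Of 30 erythroid genes tested, 21 (70%) were higher and 3 (10%) lower in the average fit, with a median of 0.74. Pklr, the red cell pyruvate kinase, was at 40.2 to 42.9 CPM in WT and 179 to 237 CPM in KO mice in CMP, 0.767 to 1.11 against 1.56 to 2.85 CPM in GMP and 521 to 548 against 949 to 992 CPM in MEP. Ermap, a red cell membrane protein, rose by 0.91 ± 0.06. The adult globins Hbb-bs (2.37 ± 0.21) and Hba-a1 (1.78 ± 0.26) and the transcription factor Klf1 (0.51 ± 0.05) passed the average test without meeting the rule, and near-identical globin copies may share reads. Gata1 (-0.19 ± 0.07), Car1 (-0.55 ± 0.10) and Tmcc2 (-0.57 ± 0.11) were the members that fell. Its median effects were 1.68 for CMP, 0.19 for GMP and 0.47 for MEP, and by edgeR 25, 3 and 21 genes were higher while 1, 6 and 1 were lower. Of 26 heme synthesis and iron genes, 16 (61.5%) were higher and 4 lower, among them the enzyme Ppox (0.68 ± 0.06) and the mitochondrial glycine carrier Slc25a38 (0.48 ± 0.05). The porphyrin exporter Abcg2 (-0.63 ± 0.06) and the ferritin chain Fth1 (-0.30 ± 0.04) were shared lower. The summed level of 7 erythroblast markers, all on the erythroid list, was 58.9 to 140.4 TPM in WT and 653 to 915 TPM in KO CMP, 26.2 to 135 against 76.3 to 94.5 TPM in GMP and 180.1 to 509.6 against 656 to 1103 TPM in MEP. Its part in the result was not tested.

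Type I interferon response genes were higher in KO mice 4 weeks after poly(I:C), which both groups had received. Of 26 tested, 21 (80.8%) were higher and 0 lower in the average fit by limma (FDR under 0.1), with a median of 0.62. The numbers were 21 and 0 at an unadjusted p under 0.05 and 19 and 0 by edgeR on counts summed per mouse. Ifit1, which blocks viral RNA translation, was at 1.41, 4.40 and 1.55 CPM in WT and 7.996, 11.6 and 9.31 CPM in KO mice in CMP. In GMP Ifit1 was at 1.13, 1.68 and 0.925 CPM in WT and 1.78, 2.77 and 1.91 CPM in KO mice. The MEP levels were 0.714, 2.83 and 0.619 CPM in WT and 7.14, 11.2 and 6.83 CPM in KO mice. Mouse WT 305 was the highest WT and mouse KO 304 the highest KO in each population, and every KO level was above every WT level. Stat2, the signal transducer of the interferon receptor, moved evenly (0.58 (CMP), 0.54 (GMP) and 0.56 (MEP)), and Ifih1, the RNA sensor MDA5, rose by 0.67 ± 0.12. The median of the list per mouse, set to the WT mean, was -0.29 to 0.41 in WT and 0.76 to 1.19 in KO CMP and -0.41 to 0.52 against 0.59 to 1.38 in MEP. In GMP the groups overlapped, with -0.20 to 0.40 in WT and 0.15 to 0.67 in KO, and 7 genes were higher and 2 lower by edgeR. Leaving out 1 mouse at a time gave average medians of the list from 0.47 to 0.95, the highest without mouse WT 305.

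Antigen presentation genes were mostly lower. Of 16 tested, 11 (68.8%) were lower and 2 (12.5%) higher, with a median of -0.30. The 3 class II genes H2-Aa, H2-Ab1 and H2-Eb1, which present peptides to helper T cells, were shared lower. H2-Aa was at 6.08, 14.9 and 12.8 CPM in WT and 0.858, 1.19 and 1.31 CPM in KO mice in CMP and at 3.76 to 12.3 against 0.761 to 1.44 CPM in WT and KO GMP. H2-Ab1 had an average effect of -0.94 ± 0.07 and was at 28.1 to 31.1 CPM in WT and 13.6 to 16.5 CPM in KO mice in CMP, and Cd74, the class II chaperone, had an average effect of -1.66 ± 0.29 without meeting the rule. Tapbp, the class I peptide loading factor, rose (0.36 ± 0.05), as did Erap1 (0.18 ± 0.04). The part of class II-positive cells in the sorted populations was not tested. The summed markers of B and plasma cells, which also express class II genes, were 154 to 237 TPM in WT and 225 to 426 TPM in KO CMP, 98.8 to 123 against 88.8 to 103 TPM in GMP and 9.06 to 17.0 against 7.18 to 19.4 TPM in MEP.

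**Figure D3:**
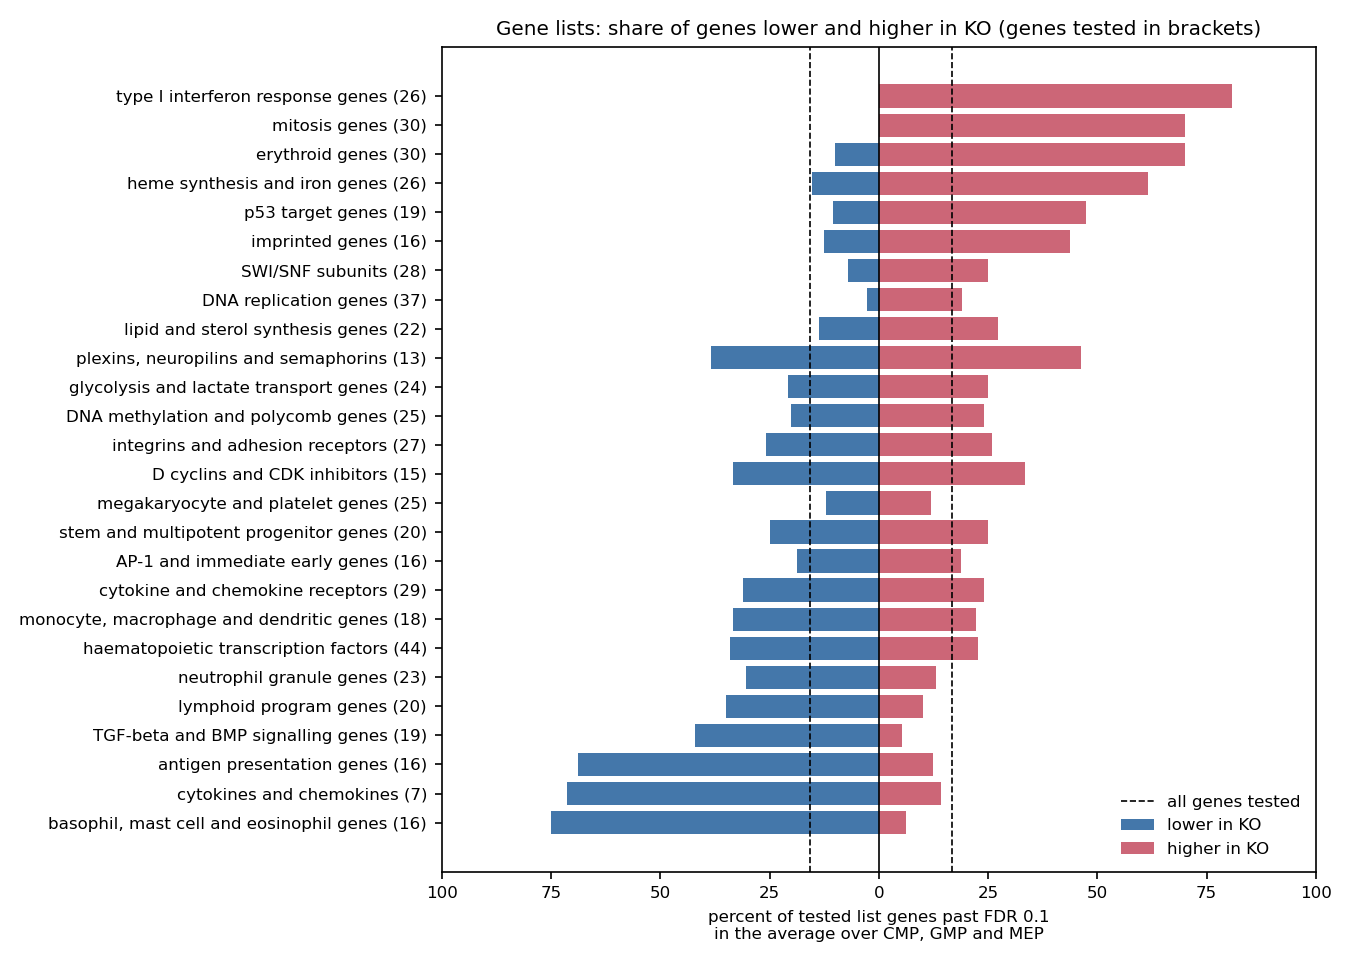
Percent of the tested genes of each list that passed limma FDR 0.1 in the average over CMP, GMP and MEP, with lower genes to the left and higher genes to the right of 0. Dashed lines mark the percentages of all tested genes (15.7% lower, 16.8% higher), and the interferon list (80.8% higher) and the basophil, mast cell and eosinophil list (75% lower) reach farthest on their sides.

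Neutrophil granule genes moved in different directions in different populations. Ltf (lactoferrin), Mmp9 and Retnlg were the 3 members lower in every KO mouse in all 3 populations. Other members had positive effects in GMP. The effects of Camp were -0.95 (CMP), 2.49 (GMP) and -0.88 (MEP), those of Lcn2 were -0.87, 2.72 and -1.04, and those of S100a8 were -1.46, 1.92 and -0.96. Ltf was at 15.7, 3.57 and 6.63 CPM in WT and 1.77, 1.19 and 1.82 CPM in KO mice in CMP. The GMP levels were 13.97, 3.53 and 4.76 CPM in WT and 1.90, 0.562 and 2.72 CPM in KO mice. In MEP it was at 7.26, 1.80 and 2.20 CPM in WT and 1.07, 0.261 and 0.373 CPM in KO mice. Mouse WT 300 was well above the other WT mice each time, and the average effect was -2.28 ± 0.54. Retnlg had an average effect of -2.02 ± 0.23 and Mmp9 one of -1.58 ± 0.34. Of 23 neutrophil granule genes, 7 were lower and 3 higher in the average fit, and by edgeR 15 were lower and 1 higher in CMP, 3 lower and 18 higher in GMP and 5 lower and 0 higher in MEP (8 and 0 at an unadjusted p under 0.05, 6 and 0 by DESeq2). By edgeR on counts summed per mouse, which weights populations by their counts, 3 were lower and 13 higher. The summed level of 8 mature neutrophil markers was 75.4 to 321 TPM in WT and 46.5 to 77.9 TPM in KO CMP, 164 to 367 against 317 to 1211 TPM in GMP and 30.5 to 105.7 against 12.1 to 27.6 TPM in MEP. Ltf and Retnlg are themselves among these 8 markers, and the part of mature neutrophils in the result was not tested.

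Monocyte genes moved both ways. Ly6c2, a surface antigen of monocytes with close gene copies, was at 29.9 to 57.4 CPM in WT and 6.01 to 7.47 CPM in KO mice in CMP and 491 to 574 against 392 to 461 CPM in GMP. F13a1, the A chain of coagulation factor XIII, was at 173, 332 and 356 CPM in WT and 9.44, 15.9 and 12.5 CPM in KO mice in CMP and at 219.7, 429 and 321 CPM in WT and 58.3, 75.1 and 62.2 CPM in KO mice in GMP, and its average effect was -3.31 ± 0.16. Adgre1, the macrophage antigen F4/80, rose and was at 8.14 to 10.5 CPM in WT and 83.3 to 109 CPM in KO mice in GMP, and Itgax (CD11c) rose by 2.20 ± 0.34. Of the 18 monocyte, macrophage and dendritic genes tested, 6 were lower and 4 higher. The summed macrophage markers, which include Adgre1, were 29.6 to 33.6 TPM in WT and 42.3 to 53.8 TPM in KO GMP, 19.8 to 26.5 against 24.2 to 30.2 TPM in CMP and 3.96 to 6.37 against 4.81 to 6.49 TPM in MEP. The higher sum in GMP came from Adgre1 alone (3.64 to 4.71 TPM in WT, 32.9 to 41.7 TPM in KO). Vcam1 (16.2 to 21.6 against 4.14 to 7.95 TPM) and Cd163 (5.36 to 8.24 against 2.72 to 4.40 TPM) were lower there. The remaining macrophage markers were at 0.858 TPM or less in GMP. Their part was not tested.

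Megakaryocyte and platelet genes were lower in CMP (15 of 25 by edgeR, 2 higher) and higher in MEP (9 of 25, 0 lower; 10 and 0 at an unadjusted p under 0.05 and by DESeq2), and only Gp9, a subunit of the von Willebrand factor receptor, was shared higher (0.71 (CMP), 0.56 (GMP) and 2.08 (MEP)). The summed megakaryocyte and platelet markers, which include Gp9, were 772 to 1129 TPM in WT and 604 to 622 TPM in KO CMP, 106 to 227 against 71.9 to 93.1 TPM in GMP and 45.5 to 70.7 against 89.8 to 114.8 TPM in MEP, and their part was not tested. Stem and multipotent progenitor genes (20 tested) had 11 lower and 1 higher member by edgeR in GMP, against 2 lower and 5 higher in MEP. The shares over all genes were 16.3% lower and 17.5% higher in GMP and 15.4% and 14% in MEP. Glycolysis and lactate transport genes had 15 of 24 higher in GMP and 13 lower in MEP, with Pfkl (-0.32 ± 0.04) shared lower and Slc16a10 (0.40 ± 0.06) and Slc2a1 (0.73 ± 0.13) shared higher beside Pklr. In the average fit, 7 of 20 lymphoid program genes were lower and 2 higher, against 15.7% and 16.8% of all tested genes. By edgeR, 3 of them were lower and 7 higher in CMP, and 7 were lower and 1 higher in GMP. In MEP 5 were lower and 0 higher by edgeR (5 and 0 at an unadjusted p under 0.05, 3 and 0 by DESeq2). Thy1 was shared lower (-2.61 ± 0.22), with 3.66 to 5.24 against 0.565 to 0.741 CPM in WT and KO CMP.

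Unless edgeR is named, counts of the following lists are by the average fit, in which 16.8% of all tested genes were higher and 15.7% lower. Among 16 imprinted genes tested, 7 were higher and 2 lower. Ndn (necdin), a growth suppressor, rose by 2.40 ± 0.20 and was at 0.723 to 0.826 CPM in WT and 5.68 to 5.71 CPM in KO mice in CMP, and the 3 remaining shared members were Peg10 (1.31 ± 0.23), Zrsr1 (0.44 ± 0.07) and Impact (-0.40 ± 0.06). Of 19 TGF-beta and BMP signalling genes, 8 were lower and 1 higher, among them the receptors Bmpr2 (-0.48 ± 0.07) and Eng (-0.56 ± 0.04). Among 28 SWI/SNF subunits, 7 were higher and 2 lower by small amounts, the 2 being Arid1a and Dpf2 (-0.25 ± 0.03), a reader of histone acetylation in the same canonical complex as ARID1A. Polycomb and DNA methylation genes were 6 higher and 5 lower of 25, with Pcgf5 (0.62 ± 0.04), Bmi1 (0.31 ± 0.04) and Suz12 (0.21 ± 0.04) shared higher. Pcgf1 met the rule but not the test (0.15 ± 0.06, limma FDR 0.126). Of 22 lipid and sterol genes, 6 were higher and 3 lower, with Srebf2 (0.28 ± 0.05) and Idi1 (0.21 ± 0.05) shared higher and Fads1 (-0.52 ± 0.03) shared lower. In the cytokine receptor list 9 of 29 were lower and 7 higher, and in the list of D cyclins and CDK inhibitors 5 of 15 were lower and 5 higher, with Rbl1 shared higher (0.16 ± 0.03). Rrm1, a ribonucleotide reductase subunit, was shared higher as well (0.26 ± 0.04).

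**Figure D4:**
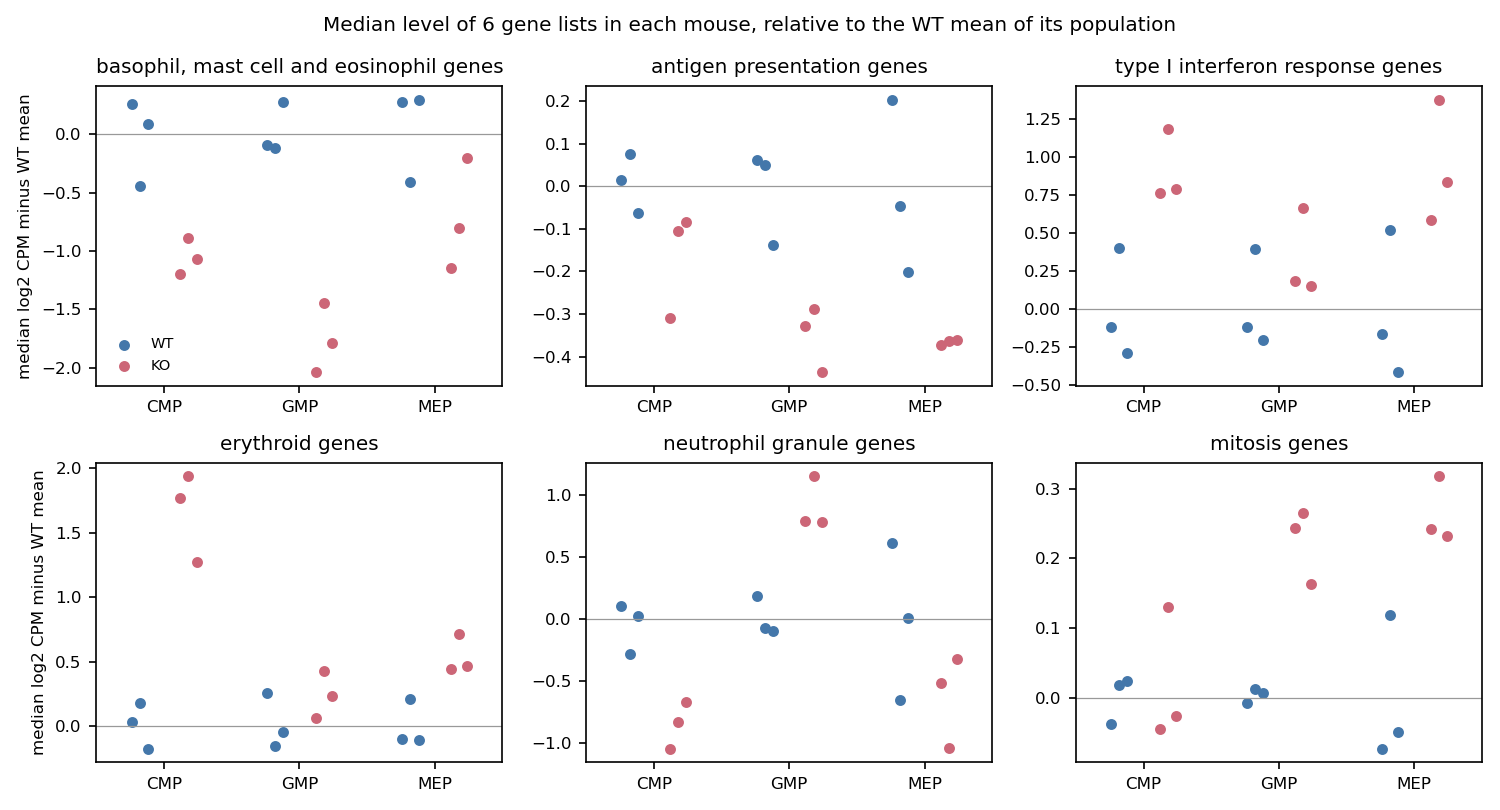
Median level of 6 gene lists in each mouse, as log2 CPM minus the WT mean of the same population, for CMP, GMP and MEP with 1 point per mouse (blue WT, red KO). KO points of the basophil, mast cell and eosinophil list lie below WT in CMP and GMP, those of the interferon list above WT in CMP and MEP, and those of the neutrophil list below WT in CMP (-1.05 to -0.67) and above WT in GMP (0.78 to 1.15).

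Another 489 genes were beyond the WT range in every population but in directions that differed. Nrgn, a calmodulin-binding protein, was at 67.3 to 86.6 CPM in WT and 33.05 to 37.4 CPM in KO mice in CMP, 10.8 to 15.8 against 2.23 to 2.37 CPM in GMP and 8.94 to 13.1 against 36.8 to 48.8 CPM in MEP, thus lower in the first 2 populations and higher in MEP. Zbtb16 (PLZF), a zinc finger factor of immature cells, was higher in CMP and MEP and lower in GMP (1.28 (CMP), -0.34 (GMP) and 3.08 (MEP)). Gsn (gelsolin), which cuts actin filaments, was higher in CMP and GMP and lower in MEP (1.15 (CMP), 1.72 (GMP) and -1.34 (MEP)). Map3k6 was higher in GMP alone (-0.98 (CMP), 0.49 (GMP) and -2.83 (MEP)), Bfsp2 in CMP alone (1.01 (CMP), -1.55 (GMP) and -2.25 (MEP)) and Sdc2, a heparan sulfate proteoglycan, in MEP alone (-0.48 (CMP), -3.61 (GMP) and 0.47 (MEP)). Averages over the 3 populations do not describe these genes.

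Shared genes had shared neighbours on the chromosome. Of the 567 lower genes, 113 (19.9%) were next to another lower gene among the tested genes, in 59 pairs, whereas 7.46% of all tested genes were next to one. Of the 498 higher genes, 67 (13.5%) were next to another higher gene, in 35 pairs, against 6.53% of all tested genes. Annotations overlapped in 6 and 2 of these pairs. Several of the largest falls lay in such pairs, among them Emid1 (-4.78) and Kremen1 (-0.85), Them7 (-3.22) and Rcn1 (-1.28), Hdac10 (-0.47) and Plxnb2 (-3.45), Ahcyl1 (-0.17) and Csf1 (-2.36), Gata2 (-1.40) and Eefsec (-0.29) and Ccnd1 (-1.38) and Tpcn2 (-0.62), given with their average effects. Oaf, Nectin1 and Thy1 on chromosome 9 formed a run of 3. Among rises, Lst1 (1.66) and Ltb (1.12) and Aldh1a1 (0.97) and Aldh1a7 (1.64) were neighbours, the latter close gene copies.

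In LT-HSC, whose libraries had not been used to choose the genes, shared genes leaned to the same side. Of 564 lower genes tested there, 358 (63.5%) had a value below 0, against 42.8% of the 14479 genes tested in all 4 cell types, and their median was -0.14 against 0.09. Of the 208 that had fallen by at least 1, 165 (79.3%) were below 0, with a median of -0.60. Of 497 higher genes, 360 (72.4%) were above 0, against 57.2%, with a median of 0.21. Of the 88 that had risen by at least 1, 61 (69.3%) were above 0, with a median of 0.25. At an unadjusted p under 0.05 (edgeR, 2 libraries against 2), 56 lower genes (9.93%) moved the same way and 3 the opposite way, against 2.53% of all genes on that side, and 44 higher genes (8.85%) moved the same way and 4 the opposite way, against 3.07%. Both KO libraries were beyond both WT libraries on the same side for 165 lower (29.3%, background 12.6%) and 164 higher genes (33.0%, background 25.8%), and on the opposite side for 82 and 24. Without the library KO 1, 293 lower genes were below 0 and their median was -0.02, and without KO 2 the values were 387 and -0.26. The median of the higher genes was 0.07 without WT 1 and 0.41 without WT 2. Summed markers of other cells differed between these libraries too. They were 13.6 to 21.5 TPM in WT against 34.9 to 39.3 TPM in KO LT-HSC for macrophages, 228 to 255 against 393 to 434 TPM for megakaryocytes, 1160 to 3866 against 3901 to 4134 TPM for erythroblasts and 461 to 2565 against 371 to 398 TPM for mature neutrophils. Basophil and mast cell markers, which were lower in the KO progenitors, were at 4.68 to 14.3 in WT and 23.5 to 36.2 TPM in KO LT-HSC (Cma1 at 0), and the median of the basophil and mast cell list was 1.30 in LT-HSC against an average of -1.18 in the progenitors. The part of these markers in the LT-HSC values was not tested.

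Of the shared genes, 6 passed FDR 0.1 by edgeR in LT-HSC, where 12 genes (0.0528%) were lower and 6 (0.0264%) higher of 22733 tested. Plxnb2 was at 78.2 and 106 CPM in WT and 9.51 and 24.01 CPM in KO libraries (LT-HSC effect -2.49, FDR 0.0964). Padi4, the arginine deiminase of neutrophil chromatin, was at 109 and 112 CPM in WT and 25.7 and 33.4 CPM in KO libraries (-1.94, FDR 0.0485). Man1c1, a Golgi mannosidase, was at 41.9 and 41.4 CPM in WT and 8.15 and 11.6 CPM in KO libraries (-2.11, FDR 0.0964). Gm45837, whose annotation overlaps Pde2a, was at 67.8 and 67.1 against 9.13 and 4.92 CPM (-3.30, FDR 0.0109). On the side of the rises were Shisa8 with 40.7 and 64.3 against 259 and 252 CPM (2.25, FDR 0.0485) and Lgals1 (galectin-1) with 30.8 and 59.7 against 267 and 206 CPM (2.36, FDR 0.0667). Their average effects in the progenitors were -3.45 for Plxnb2, -2.48 for Padi4, -1.59 for Man1c1, -3.78 for Gm45837, 3.01 for Shisa8 and 1.14 for Lgals1. Among the other named genes, LT-HSC values were -2.17 ± 0.43 for Emid1, -2.12 ± 0.66 for Osm, 2.61 ± 0.49 for Ffar2, 1.91 ± 0.56 for Cdkn1a, 1.22 ± 0.28 for Slamf1 and -1.14 ± 0.27 for Arid1a (log2 ± SE), none of them past FDR 0.1. Gata2 (-0.14 ± 0.35), Dmxl2 (-0.02 ± 0.48) and Rapgef3 (0.01 ± 0.33) were near 0 in LT-HSC with both signs inside 1 SE.

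**Figure D5:**
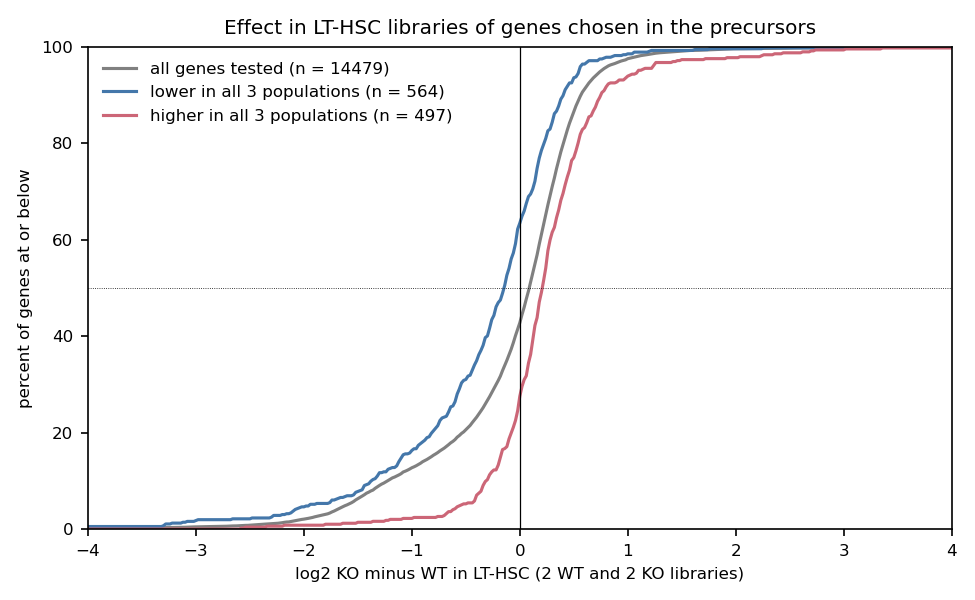
Cumulative percent of genes (vertical axis) at or below each KO minus WT log2 value in LT-HSC (horizontal axis, 2 libraries against 2) for genes shared lower, genes shared higher and all tested genes. The curve of the lower genes is shifted to the left of all tested genes (medians -0.14 and 0.09) and that of the higher genes to the right (median 0.21).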

How the data were processed

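Poly(A) RNA-seq libraries of CMP, GMP and MEP (3 WT and 3 KO mice each) and of LT-HSC (2 WT and 2 KO libraries) were used. The authors quantified transcripts with kallisto and deposited estimated counts and TPM per transcript, and they used DESeq2 for testing. Estimated counts were summed per gene (GENCODE vM21, GRCm38), which took in 99.7 to 99.77% of the counts of each progenitor library, and were rounded for edgeR and DESeq2. Kallisto divides reads among transcripts that share sequence, so close gene copies and overlapping genes are less certain. Totals of 41497753 to 60789922 counts limit the precision of low genes.

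Average effects were tested by limma (version 3.58.1, R 4.3.3) on 6 mouse means of log2 CPM over the 3 populations (TMM scaling, prior count 2), with Benjamini-Hochberg FDR under 0.1, the threshold of the study. Single populations, LT-HSC and the interaction of genotype with population (mouse as a block) were tested by edgeR (version 4.0.16), and DESeq2 (version 1.42.0) was an alternative. The scripts were tested on simulated data with known changes. Each mouse number in the labels names 1 mouse and its 3 populations. Controls were littermates, but the labels do not say which WT and KO mice belong together, so p-values measure the spread between these mice. Deviations from the group means, averaged over the 3 populations, correlated at 0.15, 0.41 and 0.28 within the 3 pairs that stand side by side in the column order of the study and at -0.34 to 0.13 in the other pairings of WT with KO mice, and these pairs were used as a block in an alternative fit.

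Named genes were Arid1a and Arid1b, the 12 largest falls and 12 largest rises among shared genes that averaged at least 1 TPM in each population, the 5 most even falls and rises of at least 1 on the log2 scale, the 6 genes of opposite signs with the largest range, and every shared member of a gene list. The TPM averages took in WT and KO libraries together, so some genes passed this limit through the group in which they were high. Other list members, chromosome neighbours, genes at the edge of the rule and genes called in LT-HSC were chosen after their values were seen. The gene lists and the members were chosen with earlier results of these data known. Normalization, the filter on low counts, the prior count, TPM, the test, blocks and single mice or populations were varied. Some named genes are not reported here.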

Additional observations from a re-analysis of the deposited data

Results flagged for a closer look

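Effects of the following named genes differed between CMP, GMP and MEP by edgeR's interaction test (FDR under 0.1), and each is given by the range of its 3 effects on the log2 scale. Among genes with opposite signs the ranges were 4.54 for Nrgn, 4.08 for Sdc2, 3.42 for Zbtb16, 3.32 for Map3k6, 3.27 for Bfsp2 and 3.06 for Gsn. These genes were picked from the same values for signs that differed and the largest ranges, so their calls are no separate result. Among the largest falls, they were 4.58 for Osm, 2.69 for Them7, 2.56 for Rapgef3, 2.48 for Cd63, 1.77 for Emid1, 1.65 for 2900026A02Rik, 1.48 for St8sia6, 1.48 for Bmp1, 1.18 for Acy3, 1.05 for Rgs10 and 0.44 for Arhgef40. Among the largest and most even rises, they were 2.29 for Cdkn1a, 2.285 for Thbd, 2.015 for Olfm1, 1.73 for Ifitm1, 1.715 for Ffar2, 1.499 for Pklr, 0.89 for Arid3b, 0.69 for Dmxl2, 0.61 for Lst1 and 0.52 for Zdhhc2. Arid1b, which was not shared, had a range of 0.34. Among list members that were shared lower, the ranges were 2.48 for Ly6c2, 2.39 for Csf1, 2.21 for F13a1, 1.98 for Nrp2, 1.604 for Prss34, 1.44 for Plxna3, 1.15 for Gata2, 1.07 for Abcg2, 0.82 for Ccnd1, 0.79 for Il3ra, 0.72 for Cpa3, 0.67 for Fads1, 0.64 for Slc18a2, 0.62 for H2-Ab1, 0.6001 for Nr4a2, 0.49 for Bmpr2, 0.38 for Cd47, 0.38 for Impact, 0.35 for Itga5 and 0.33 for Fth1. Among list members that were shared higher, they were 2.08 for Ifit1, 1.94 for Adgre1, 1.89 for Itgax, 1.62 for Slc2a1, 1.52 for Gp9, 1.200 for E2f2, 1.197 for Ermap, 1.04 for Slamf1, 0.87 for Zmat3, 0.52 for Ccne1, 0.47 for Zrsr1, 0.46 for Slc25a38, 0.37 for Ifih1 and 0.36 for Ccna2.

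In LT-HSC, 5 named genes had both KO libraries beyond both WT libraries on the side opposite to the progenitors. Among all 14479 genes tested there and in the progenitors, 25.8% had both KO libraries above both WT libraries and 12.6% below. Nothing is therefore read from the number of these named genes. The LT-HSC values were -2.59 for Olfm1 and -2.19 for Peg10, which were higher in the progenitors, and 2.24 for Cpa3, 0.73 for Ccnd1 and 0.53 for Cd47, which were lower there. The difference between LT-HSC and progenitors was not tested for these genes. Groups of 2 and 3 are too small for a check of single samples.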

How the results depend on the processing

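Of 162 alternative values of the main counts and medians, 149 kept their direction and stayed within 1.5 times the reported value (or, for the LT-HSC medians, within the spread). Shared higher genes numbered 278 with the deposited TPM, and an average effect of at least 0.5 left 356 lower and 211 higher. Leaving out 1 mouse at a time gave 1646 to 2910 lower and 1660 to 2590 higher genes in the average fit, 635 to 1102 shared lower and 594 to 796 shared higher genes, 1438 to 2112 lower and 1288 to 1723 higher in CMP, 2158 to 2890 and 1971 to 2554 in GMP, 1570 to 2836 and 1470 to 2521 in MEP, and 284 to 584 and 177 to 329 in all 3. With 1 mouse fewer the rule compares fewer levels, so the counts of shared genes were nearly bound to rise. Without 1 LT-HSC library, the medians were -0.26 to -0.02 for lower and 0.0709 to 0.41 for higher genes, and 293 to 387 and 280 to 396 genes kept the direction.

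The average fit called 2789 lower and 2861 higher genes with the mouse as a random replicate block over 18 libraries and 3235 and 3288 with no replicate block. With WT and KO mice paired by column order as a replicate block, it called 2841 and 3228, and 515 genes were higher in all 3 populations. Deviations of these pairs correlated at 0.15 to 0.41 (mean over populations), with one pair at -0.03 in MEP. This block changed no call of a named gene and moved no other count of calls by over 1.5 times.

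Of 1976 alternative values of named genes, 1956 kept the call, 8 were weaker, 4 stronger and 8 reversed. Named genes other than Arid1a and Arid1b were chosen from these same values, which favours kept calls, so nothing is read from this share. Arid1b was at -0.045 by edgeR and -0.0447 by DESeq2 on counts summed per mouse, from -0.023 (without WT 305) to 0.0946 when 1 mouse was left out, and at -0.0395 without MEP. Bfsp2 was at 0.0315 by edgeR and 0.0321 by DESeq2 on summed counts, and without GMP Nrgn was at 0.47 and Gsn at -0.0932. The cause was not tested. Depth limits genes below about 1 CPM, such as Csf1 in MEP.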
